A study of Homo sapiens with 12 samples.

Results

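The genes described here are the ABC transporter genes, taken as every protein-coding row of the deposited table whose symbol is ABC, a subfamily letter from A to G and a number. The rule found 45 genes among the 60664 rows of the table, 19966 of which are protein-coding. By subfamily they are 12 ABCA, 9 ABCB, 11 ABCC, 4 ABCD, 1 ABCE, 3 ABCF and 5 ABCG genes. ABC proteins that carry other symbols (TAP1, TAP2 and CFTR) and the pseudogene ABCC13 fall outside the rule. Poly-A RNA was sequenced from 2 human cell lines labelled as hepatocellular carcinoma, with 3 libraries in each of 4 groups. MHCC97H cells carried pGreen-628, labelled as miR-628-3p overexpression, or a vector labelled as wild type. Huh7 cells received miR-628-3p mimics, also labelled as overexpression, or negative-control mimics labelled as wild type. All cells were grown in DMEM with fetal bovine serum, and the labels give no drug treatment. The sources used here do not give the promoter in pGreen-628, the dose and time of the mimic, or whether the MHCC97H cells were 1 clone. Line and delivery, by vector or by mimic, change together and cannot be told apart. The rise in the microRNA was not measured, because poly-A selection does not capture its mature form. Nothing in the labels says that the libraries came from separate cultures, so p-values measure only the spread between these libraries, which may be technical.

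ABC proteins share a nucleotide-binding domain that hydrolyses ATP, and most use it to move a substrate across a membrane. In the liver, members at the canalicular membrane build bile by exporting bile salts, phospholipid, sterols and conjugated organic anions, while others return conjugates to blood or load cholesterol onto lipoproteins. Several are known from cancer cells as pumps that expel drugs, and the ABCE and ABCF proteins have no membrane spans and act on ribosomes and translation instead.

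A microRNA pairs with messenger RNA mainly through its seed, bases 2 to 8, so the mature sequence (RefSeq, GRCh38.p14, chr15:55372954-55372974, minus strand) is shown with its seed in capitals, followed by each match found in the 3′ UTR of an ABC gene. The matches come from GENCODE release 29 on GRCh38, in the sense of the transcript, with the match in capitals. TTACTAG pairs with the whole seed, and TACTAGA pairs with bases 2 to 7 and has an A after them. TTACTAGA holds both. Searches were on the transcript strand only.
hsa-miR-628-3p: uCUAGUAAgaguggcagucga
ABCE1, chr4:145127604-145127631, plus strand: attaaaaggagtatTTACTAGAattttt
ABCA13, chr7:48645972-48645999, plus strand: ttgttgtcatctatTTACTAGAtacatg
ABCC8, chr11:17392874-17392900, minus strand: atttgattatttccTACTAGAggccct
TTACTAG occurred in 2 of 45 ABC genes with a 3′ UTR (4.44%), against 1298 of 19439 protein-coding genes (6.68%). TACTAGA occurred in 3 of them (6.67%), against 6.52% of protein-coding genes, and the median 3′ UTR was 1092 bases in ABC genes and 1066 bases in all. Of the 3 genes, ABCE1 was read at depth, with its match at base 45 of a UTR of 1606 bases. ABCA13 and ABCC8 had at most 10 reads in any library, so an effect on them was not detectable at this depth. A match is a description of letters, not evidence of binding.

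Levels are FPKM, counted fragments scaled to exon length and to the library total, which allows levels of different genes to be compared per length. Totals lay between 16472932 and 19578875 reads per library, and between 12456 and 12826 genes reached an FPKM of 1. Hepatocyte markers were read in both lines but at levels far apart. Summed over 9 genes they reached 63.1 to 69.2 FPKM in pGreen-628 and 39.4 to 42.6 FPKM in vector libraries of MHCC97H, and 12231 to 13571 FPKM in mimic and 11188 to 12106 FPKM in control libraries of Huh7. In MHCC97H the higher sum was that of ALB, at 39.8 FPKM in pGreen-628 and 13.9 FPKM in vector libraries (log2 difference 1.45, called), while FGB was called lower (-0.64) and the median over the 7 tested markers was 0.118. All 9 were called lower in MHCC97H between the control libraries, and their part in the ABC differences between the lines was not tested. Of 6 fibroblast markers the sums were 1.74 to 2.14 FPKM in MHCC97H vector and 44.0 to 55.7 FPKM in Huh7 control libraries, and of 6 leukocyte markers 2.34 to 3.04 FPKM in MHCC97H vector and 145 to 179 FPKM in Huh7 control libraries, while COL1A1, DCN, CD3E and CD68 were under 0.1 FPKM in both groups. The 5 endothelial markers summed to 9.0 to 9.51 FPKM in pGreen-628 and 5.83 to 6.59 FPKM in vector libraries, with VWF and EMCN under 0.1 FPKM in both. The pGreen-628 libraries 2 and 3 lay furthest apart of any replicates, with a chi-square per degree of freedom of 34.5 across genes, against 1.93 to 3.50 between vector libraries. Within the pGreen-628 group those libraries also held the lowest and highest level of ABCC2, ABCD3 and ABCE1.

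In the control libraries, 27 of the 45 had a mean of at least 1 FPKM in MHCC97H and 25 in Huh7, with 24 in both. The shares, 60% and 55.6%, lay close to those of all protein-coding genes, 54.1% and 52.6%. A group of 17 stayed under 1 FPKM in both lines. The 5 highest genes made up 58.6% to 60% of the summed ABC level in MHCC97H vector libraries and 58.2% to 60.8% in Huh7 control libraries, but the order differed. MHCC97H was led by ABCC2, the canalicular exporter of bilirubin glucuronides and other conjugates, then ABCE1, ABCG2, ABCC3 and ABCD3. Huh7 was led by ABCE1, the factor that splits ribosomes after termination, then ABCD3, ABCF1, ABCC2 and ABCF3. The plot of levels shows ABCG1, ABCG2 and the exporters ABCC1, ABCC2 and ABCC3 further to the right in MHCC97H than in Huh7.

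**Figure D1:**
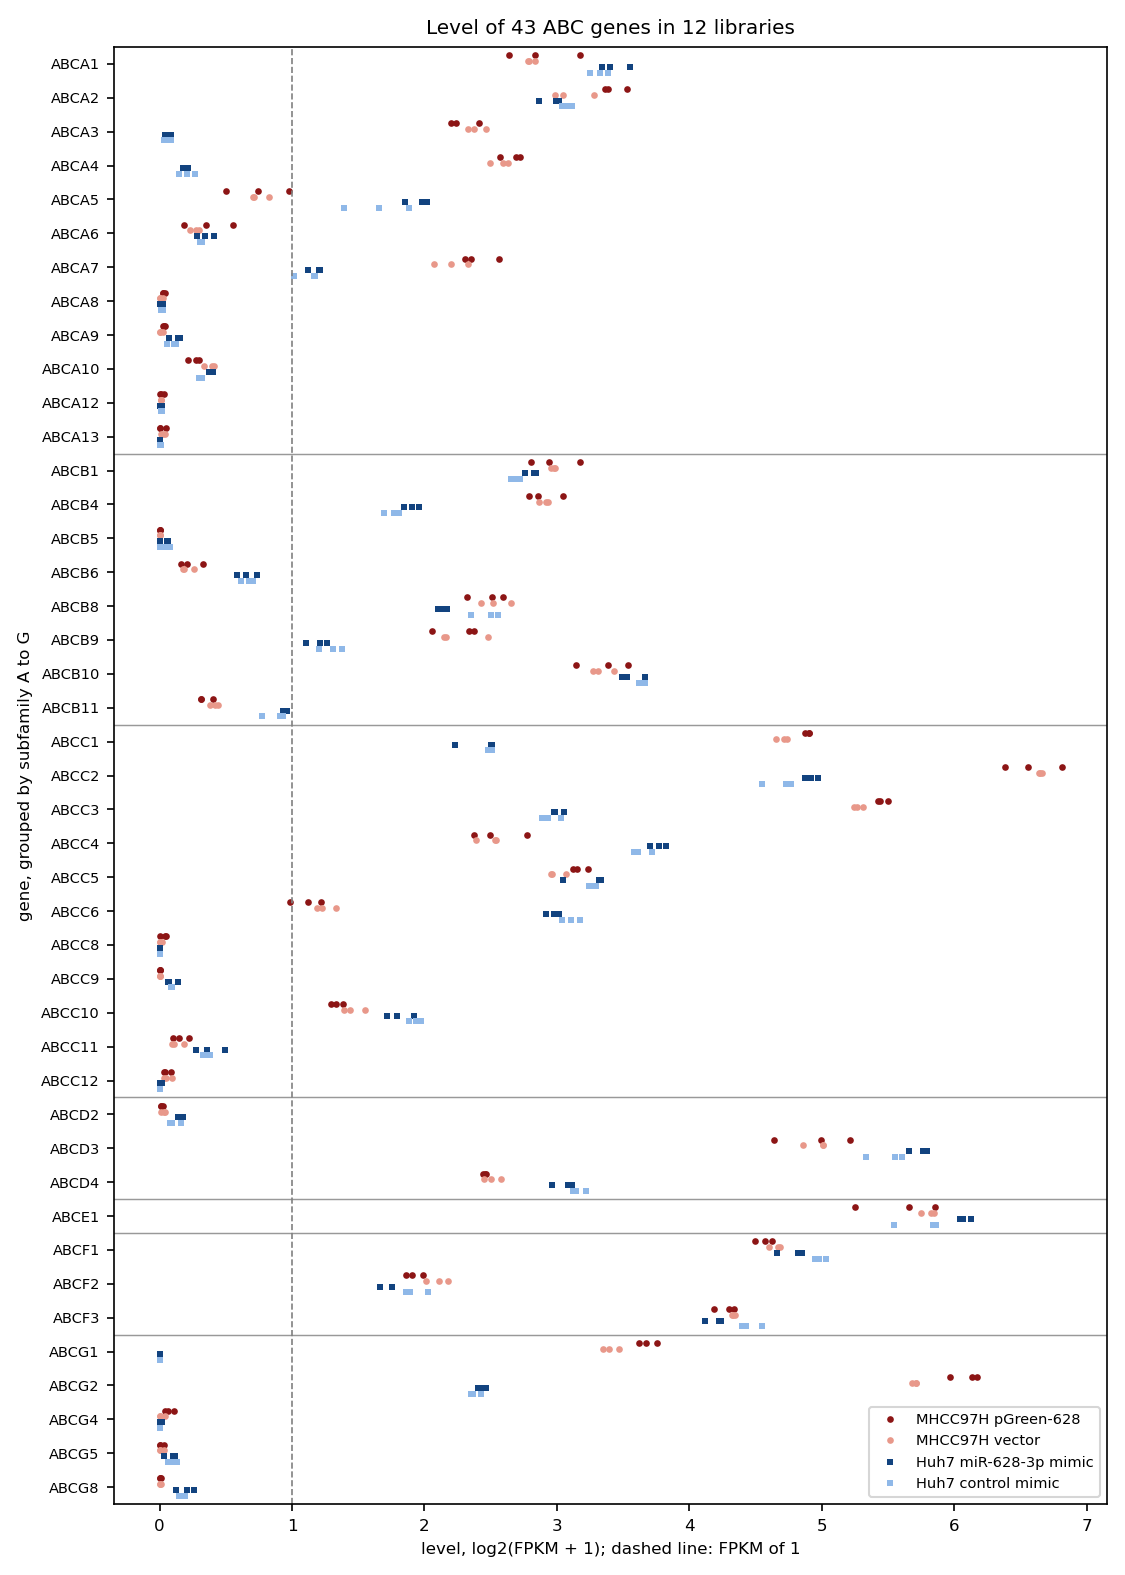
Level of 43 of the 45 ABC genes on the log2(FPKM + 1) scale (horizontal axis), with genes by subfamily down the page and 1 point per library, 3 for each of the 4 groups. The dashed line marks an FPKM of 1, which 27 of all 45 genes reached on average in MHCC97H vector libraries and 25 in Huh7 control libraries, and ABCG1 and ABCG2 show the widest gaps between the lines.

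The control libraries of the lines were compared to describe the starting level in each, coded as MHCC97H vector minus Huh7 control mimic. A gene is called where its adjusted p is under 0.05, from limma on log2(FPKM + 1) with Benjamini-Hochberg adjustment over all tested genes, and genes with a mean FPKM under 1 over the libraries compared were not tested. Fold changes on that scale understate the change of weakly expressed genes. Of the 45 ABC genes 28 were tested and 24 called, 13 higher and 11 lower. Over all 13191 tested genes 84.5% were called, 42.3% higher and 42.2% lower, so the count of ABC genes stands near the background. The libraries of the lines did not overlap for 24 of the 28, 85.7%, against 85.5% of all tested genes. Not called were ABCA2, ABCB8, ABCE1 and ABCF2.

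The 5 largest called differences toward MHCC97H were those of ABCG1, ABCG2, ABCA4, ABCA3 and ABCC3. ABCG2, the breast cancer resistance protein and a urate exporter (ENSG00000118777, chr4:88090150-88231628, minus strand), had 51.5, 51.5 and 50.4 FPKM in MHCC97H vector libraries, against 4.17, 4.10 and 4.37 FPKM in Huh7 control libraries. The ratio of means was 12.1 and the log2 difference 3.32 (SE 0.040, adjusted p = 6.76e-10). ABCG1, which passes cellular cholesterol to high-density lipoprotein (ENSG00000160179, chr21:42199689-42297244, plus strand), had 10.1, 9.51 and 9.17 FPKM in MHCC97H vector libraries and 0 reads in every Huh7 library. With 3 reads per library as the limit that a count of 0 allows, it was at least 150-fold higher in MHCC97H. ABCC3, the basolateral exporter of conjugates to blood, had 37.0, 38.8 and 37.5 FPKM in MHCC97H vector libraries, against 6.63, 7.2 and 6.41 FPKM in Huh7 control libraries, with a log2 difference of 2.32 (SE 0.051, adjusted p = 1.02e-08). ABCC2 had 99.4, 99.0 and 100.5 FPKM in MHCC97H vector libraries, against 22.4, 25.6 and 26.2 FPKM in Huh7 control libraries, a ratio of means of 4.03 and a log2 difference of 1.97 (SE 0.059, adjusted p = 5.00e-08). In ABCG2, ABCG1, ABCC3 and ABCC2 every MHCC97H library lay above every Huh7 library.

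The ABCA genes among them, known from other tissues, were read in MHCC97H and near 0 in Huh7. ABCA4, the retinoid flippase of photoreceptors, had 5.18, 5.02 and 4.65 FPKM in MHCC97H vector libraries, against 0.203, 0.157 and 0.108 FPKM in Huh7 control libraries. The ratio of means was 31.8, with a log2 difference of 2.36 (SE 0.067, adjusted p = 3.76e-08). ABCA3, the surfactant lipid transporter of lung, had 4.02, 4.51 and 4.17 FPKM in MHCC97H vector libraries, against 0.0605, 0.0237 and 0.0368 FPKM in Huh7 control libraries, which is 3 to 7 reads. Its log2 difference was 2.33 (SE 0.065, adjusted p = 3.36e-08) by limma. Over the alternatives it ranged from 1.86 after GC and length correction to 6.66 with voom on the recovered reads.

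The 5 largest called differences toward Huh7 were those of ABCC6, ABCC4, ABCA5, ABCD4 and ABCD3. ABCC6, through which the liver releases ATP and whose loss causes ectopic calcification, had 1.28, 1.34 and 1.51 FPKM in MHCC97H vector libraries, against 7.61, 8.05 and 7.22 FPKM in Huh7 control libraries, with a log2 difference of -1.86 (SE 0.066, adjusted p = 1.11e-07). Its pseudogene ABCC6P1 moved alongside, with 111, 128 and 116 reads in MHCC97H vector libraries and 426, 569 and 485 reads in Huh7 control libraries, so the level of ABCC6 is uncertain where reads could belong to either. ABCC4, an exporter of cyclic nucleotides and bile acids, averaged 4.62 ± 0.325 FPKM in MHCC97H vector libraries and 11.5 ± 0.620 FPKM in Huh7 control libraries (SD, n = 3 each), with a log2 difference of -1.15 (SE 0.064, adjusted p = 1.30e-06). ABCA5, a lysosomal member, averaged 0.683 ± 0.0813 FPKM in MHCC97H vector libraries and 2.16 ± 0.531 FPKM in Huh7 control libraries (log2 difference -0.90, SE 0.12, adjusted p = 0.000282). It shares 2.4% of its exon bases with ABCA10 on the same strand.

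Of the peroxisomal and related ABCD genes, ABCD3, an importer of bile acid intermediates and branched fatty acids, had 31.2, 28.0 and 31.2 FPKM in MHCC97H vector libraries, against 39.4, 47.7 and 46.1 FPKM in Huh7 control libraries. The log2 difference was -0.54 (SE 0.079, adjusted p = 0.000396). ABCD4, which exports cobalamin from lysosomes, averaged 4.70 ± 0.266 FPKM in MHCC97H vector libraries and 7.96 ± 0.336 FPKM in Huh7 control libraries (log2 difference -0.65, SE 0.057, adjusted p = 1.85e-05), and 7.1% of its exon bases lie in another gene on the same strand. ABCD2 had at most 14 reads in any library.

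ABCE1 was high in both lines and not called between them, with 56.6, 52.7 and 55.7 FPKM in MHCC97H vector libraries, against 45.6, 57.2 and 56.3 FPKM in Huh7 control libraries. The log2 difference was 0.06 (SE 0.087, adjusted p = 0.553). Of the ABCF genes, ABCF1, which works with the initiation factor eIF2, had 24.7, 24.4 and 23.3 FPKM in MHCC97H vector libraries, against 31.8, 30.6 and 29.9 FPKM in Huh7 control libraries (log2 difference -0.34, SE 0.042, adjusted p = 0.000152). ABCF3 had 19.0, 19.1 and 19.3 FPKM in MHCC97H vector libraries, against 22.4, 20.1 and 20.6 FPKM in Huh7 control libraries (log2 difference -0.13, SE 0.048, adjusted p = 0.0411). The call of ABCF3 held in 6 of 15 alternatives, with adjusted p from 7.13e-05 to 0.10, and was lost without any 1 library other than Huh7 control library 2. The other 23 line calls held in all 15.

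Among the remaining tested members, ABCC1, a pump of glutathione conjugates and drugs, averaged 25.0 FPKM in MHCC97H vector libraries and 4.65 FPKM in Huh7 control libraries. Its log2 difference was 2.20 (SE 0.043, adjusted p = 5.76e-09 by limma). ABCB4, the canalicular phospholipid floppase, averaged 6.5 FPKM in MHCC97H vector libraries and 2.39 FPKM in Huh7 control libraries. ABCA7 averaged 3.61 FPKM in MHCC97H vector libraries and 1.18 FPKM in Huh7 control libraries, and all 3 were called. ABCB1, the P-glycoprotein drug pump, was close in the lines, at 6.86 ± 0.0803 FPKM in MHCC97H vector libraries and 5.43 ± 0.157 FPKM in Huh7 control libraries, yet still called at a log2 difference of 0.29 (SE 0.046, adjusted p = 0.000642). ABCA1, which starts the loading of apolipoprotein A-I with cholesterol, was called lower in MHCC97H, at 5.97 ± 0.146 FPKM in vector libraries and 9.0 ± 0.465 FPKM in Huh7 control libraries (log2 difference -0.52, SE 0.052, adjusted p = 4.38e-05). These 5 were chosen after their values were seen. The mitochondrial ABCB10, with ABCB9, ABCC5 and ABCC10, lay between 1.31 and 11.7 FPKM in every control library and were called, with log2 differences from -0.47 to 0.96. ABCF2, not called, had 3.04, 3.52 and 3.32 FPKM in MHCC97H vector libraries, against 2.64, 3.08 and 2.71 FPKM in Huh7 control libraries (adjusted p = 0.0558).

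Several genes of liver bile secretion were under 1 FPKM on average in both lines. ABCB11, the bile salt export pump, had 0.304, 0.335 and 0.356 FPKM in MHCC97H vector libraries and 0.708, 0.881 and 0.911 FPKM in Huh7 control libraries. ABCG5 and ABCG8, which together export sterols into bile, had at most 5 and 24 reads in any library. The potassium channel subunits ABCC8 and ABCC9 had at most 3 and 17 reads, and ABCC12, ABCG4, ABCA8, ABCA12 and ABCB5 at most 6. The rest of those under 1 FPKM in both lines were ABCA6, ABCA9, ABCA10, ABCA13, ABCB6, ABCC11 and ABCD2, with levels up to 0.668 FPKM. ABCB6 shares 54.7% and ABCF2 45.8% of exon bases with a gene annotated on the same strand, and ABCB9 24.5% and ABCE1 11.9% with genes on the opposite strand. The sources used here do not say how the counting treated such reads.

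In MHCC97H, pGreen-628 cells were compared with vector cells, and ABCG2 was the 1 ABC gene called of 27 tested. Of all 12670 tested genes 5.37% were called. It had 69.2, 61.7 and 71.0 FPKM in pGreen-628 libraries, against 51.5, 51.5 and 50.4 FPKM in vector libraries. Every pGreen-628 library lay above every vector library, and the ratio of means was 1.32. The log2 difference was 0.39 (SE 0.068, adjusted p = 0.0226). Its share of the summed ABC level was 13.8% to 14.5% in pGreen-628 libraries and 11.0% to 11.2% in vector libraries. By mean level it ranked 2 among the ABC genes in pGreen-628 libraries and 3 in vector libraries.

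The size of the ABCG2 difference changed little over the alternatives, while its call did not hold in all of them. The call held in 10 of 15 alternatives, with log2 differences from 0.35 to 0.45 and adjusted p from 0.000947 to 0.131. It was lost without pGreen-628 library 1 (adjusted p = 0.111), without vector libraries 1, 2 or 3 (0.112, 0.0955 and 0.131) and with no filter on level (0.0536). Calls over all tested genes fell in the same fits, from 680 with every library kept. They numbered 166 without pGreen-628 library 1 and 145, 185 and 142 without vector library 1, 2 or 3. With no filter 326 of 29072 were called.

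In all 27 ABC genes were tested in MHCC97H and 1 was called, higher, where 5.37% of all 12670 tested genes were called, 2.32% higher and 3.05% lower. The median log2 difference was -0.01 over the 27 and -0.04 over all tested genes, and the groups did not overlap for 8 of 27 (29.6%), against 30.0% of all. ABCG1 had 11.3, 12.5 and 11.8 FPKM in pGreen-628 libraries, against 10.1, 9.51 and 9.17 FPKM in vector libraries, without overlap. Its log2 difference of 0.28 (SE 0.070) had an adjusted p of 0.0613 by limma, and 0.010 to 0.263 over the alternatives, with 0.0444 without pGreen-628 library 3. ABCA2, a lipid transporter of lysosomes that is abundant in brain (ENSG00000107331, chr9:137007234-137028922, minus strand), had 9.30, 10.6 and 9.47 FPKM in pGreen-628 libraries, against 7.28, 8.73 and 6.93 FPKM in vector libraries, again without overlap. The log2 difference was 0.32 (SE 0.097, adjusted p = 0.103). After correction of each library for GC content and transcript length, ABCG1 (0.28, adjusted p = 0.0155) and ABCA2 (0.24, adjusted p = 0.0360) passed beside ABCG2 (0.43, adjusted p = 0.000947). These were 3 of 27 ABC genes, where 1981 of all 12630 tested genes were called after that correction.

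The other members of the conjugate and drug pumps did not pass. ABCC2 had 93.4, 82.6 and 111.5 FPKM in pGreen-628 libraries, against 99.4, 99.0 and 100.5 FPKM in vector libraries, a spread that straddled the vector on both sides (log2 difference -0.07, SE 0.10, adjusted p = 0.757). ABCC3 had 42.0, 44.3 and 42.5 FPKM in pGreen-628 libraries, against 37.0, 38.8 and 37.5 FPKM in vector libraries, without overlap but with an adjusted p of 0.117. ABCD3 had 30.8, 24.0 and 36.2 FPKM in pGreen-628 libraries, against 31.2, 28.0 and 31.2 FPKM in vector libraries. Log2 differences over the 27 ran from -0.22 for ABCE1 to 0.39 for ABCG2. The summed level of all 45 genes was 443 to 513 FPKM in pGreen-628 libraries and 459 to 461 FPKM in vector libraries, so the groups overlapped as a whole. The groups did not overlap for 3 of the 7 subfamily sums. The ABCG sum, most of it ABCG2, was higher, at 74.3 to 82.8 FPKM in pGreen-628 libraries and 59.6 to 61.6 FPKM in vector libraries. The ABCA sum was also higher, at 30.6 to 31.9 FPKM in pGreen-628 libraries and 26.7 to 29.4 FPKM in vector libraries. The ABCF sum was lower, at 41.37 to 45.87 FPKM in pGreen-628 libraries and 45.94 to 47.04 FPKM in vector libraries. These sums were not tested.

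**Figure D2:**
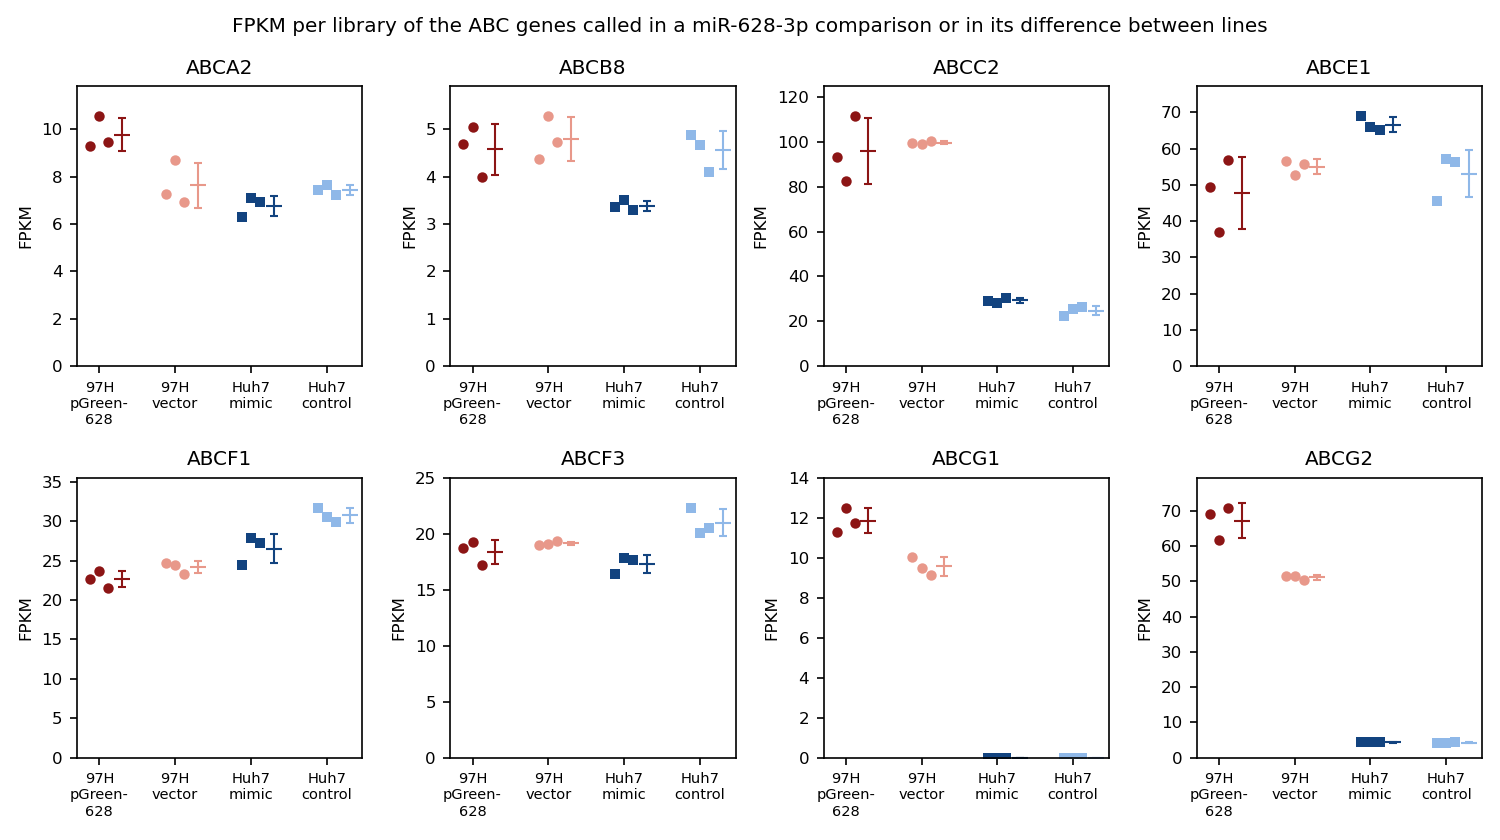
FPKM (vertical axes, from 0) in each of the 3 libraries per group for the 8 ABC genes called in a comparison of miR-628-3p with control or in its difference between the lines, with MHCC97H on the left of each panel and Huh7 on the right, and the miR-628-3p group left of its control. Bars beside the points are means ± SD; ABCG2 stands at 61.7 to 71.0 FPKM in pGreen-628 libraries, above 50.4 to 51.5 FPKM in vector libraries, and ABCG1 is at 0 in Huh7.

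In Huh7, mimic-treated cells were compared with control mimic cells, and 5 of 25 tested ABC genes were called, 2 higher and 3 lower. Of all 12508 tested genes 21.1% were called, 6.75% higher and 14.4% lower, which leaves the count of ABC genes at the background. The split was 3 higher and 2 lower after median rescaling or quantile normalization, which took in ABCD3 and dropped ABCF1. The median log2 difference was -0.03 over the 25 and -0.05 over all tested genes, and the groups did not overlap for 14 of 25 (56.0%), against 48.8% of all.

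The 2 that rose were ABCE1 and ABCC2. ABCE1 (ENSG00000164163, chr4:145098288-145129524, plus strand) had 69.0, 66.0 and 65.0 FPKM in mimic libraries, against 45.6, 57.2 and 56.3 FPKM in control libraries. The groups did not overlap, and the log2 difference was 0.33 (SE 0.086, adjusted p = 0.0371). Of the ABC genes with a full seed match for miR-628-3p in the 3′ UTR, printed with the microRNA, it alone was tested, and in Huh7 it was higher with the mimic. In MHCC97H it had 49.4, 37.1 and 56.8 FPKM in pGreen-628 libraries, against 56.6, 52.7 and 55.7 FPKM in vector libraries, with overlap (log2 difference -0.22, SE 0.14, adjusted p = 0.412). ABCC2 (ENSG00000023839, chr10:99782640-99852594, plus strand) had 29.2, 28.3 and 30.3 FPKM in Huh7 mimic libraries, against 22.4, 25.6 and 26.2 FPKM in control libraries, without overlap (log2 difference 0.24, SE 0.067, adjusted p = 0.0434).

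The 3 that fell were ABCB8, ABCF3 and ABCF1. ABCB8, an ABC protein of the mitochondrial inner membrane, had 3.36, 3.51 and 3.30 FPKM in mimic libraries, against 4.89, 4.67 and 4.11 FPKM in control libraries, a log2 difference of -0.34 (SE 0.075, adjusted p = 0.0299). ABCF3 had 16.4, 17.9 and 17.7 FPKM in mimic libraries, against 22.4, 20.1 and 20.6 FPKM in control libraries (log2 difference -0.27, SE 0.061, adjusted p = 0.0306). ABCF1 had 24.4, 27.9 and 27.2 FPKM in mimic libraries, against 31.8, 30.6 and 29.9 FPKM in control libraries (log2 difference -0.21, SE 0.062, adjusted p = 0.0473). In each of the 3 every mimic library lay below every control library.

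The other tested members were not called in Huh7. ABCD3 had 53.4, 49.6 and 54.5 FPKM in mimic libraries, against 39.4, 47.7 and 46.1 FPKM in control libraries, a log2 difference of 0.24 (SE 0.077) with an adjusted p of 0.0572 by limma. ABCG2, the gene called higher in MHCC97H, had 4.51, 4.35 and 4.30 FPKM in mimic libraries, against 4.17, 4.10 and 4.37 FPKM in control libraries. Its log2 difference was 0.05 (SE 0.061, adjusted p = 0.579). Those groups overlapped. ABCA2 had 6.29, 7.10 and 6.95 FPKM in mimic libraries, against 7.43, 7.67 and 7.22 FPKM in control libraries, without overlap (log2 difference -0.12, SE 0.063, adjusted p = 0.189). Uncalled members of the 25 ran from -0.23 for ABCF2 to 0.31 for ABCA5. Outside the tested genes, ABCB11 had 0.949, 0.912 and 0.906 FPKM in mimic libraries, against 0.708, 0.881 and 0.911 FPKM in control libraries. The summed level of the 45 genes was 305 to 312.8 FPKM in mimic libraries and 277.8 to 301.1 FPKM in control libraries, without overlap. The ABCC, ABCD and ABCE sums were higher and the ABCF sum lower without overlap, while the ABCA, ABCB and ABCG sums overlapped. These sums were not tested.

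The Huh7 differences moved with base composition. Across 12452 tested genes with a transcript sequence, Spearman's rho between the log2 difference and the GC content of the longest transcript was -0.720, and over the 25 ABC genes -0.742. These genes share the same 6 libraries, so both values are descriptions. The genes that rose have GC contents of 38.4% (ABCE1) and 44.9% (ABCC2), and those that fell 52.9% (ABCF1), 56.3% (ABCF3) and 60.4% (ABCB8), around a median of 51.6% over the tested ABC genes. In MHCC97H the values were 0.172 over all tested genes and 0.097 over the 27.

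**Figure D3:**
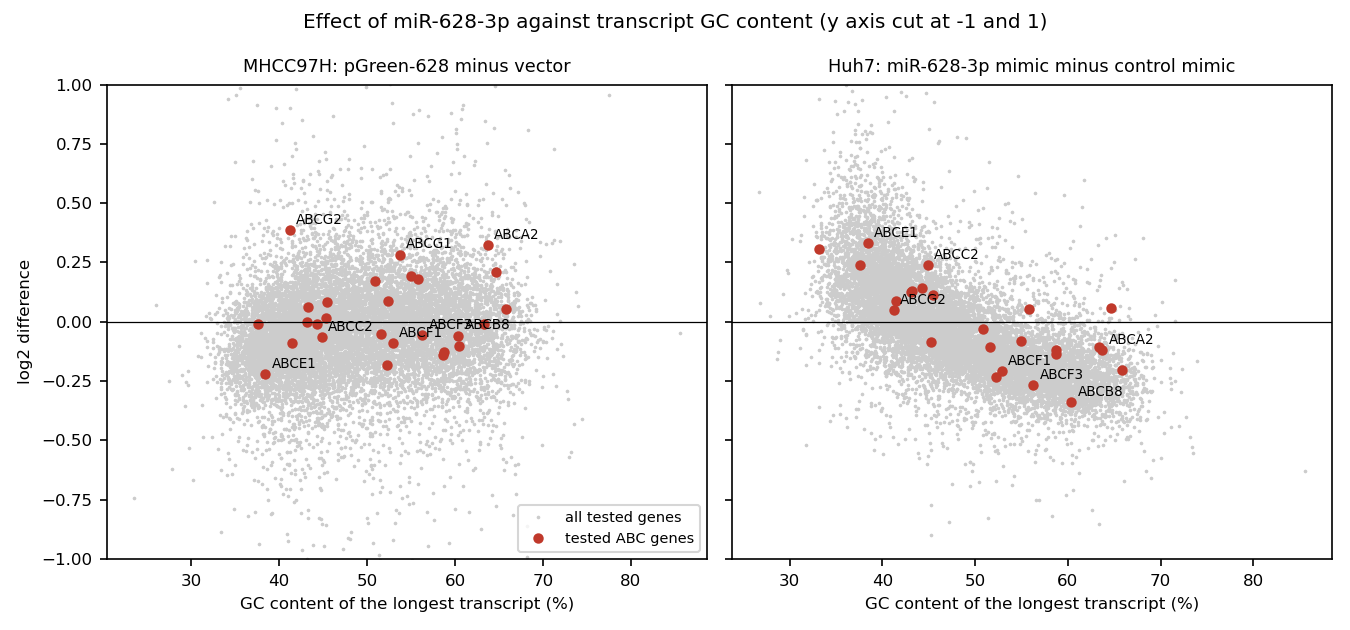
Log2 difference with miR-628-3p (vertical axis, shown from -1 to 1) against the GC content of the longest transcript in percent (horizontal axis), for all tested genes in grey and tested ABC genes in red, in MHCC97H on the left and Huh7 on the right. The Huh7 points slope downward (rho -0.742 over 25 ABC genes) and the MHCC97H points do not (rho 0.097 over 27); 47 genes in MHCC97H and 20 in Huh7 lie outside the vertical range.

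When each library was corrected for GC content and transcript length without use of the groups, no ABC gene was called in Huh7, and 1 gene was called in the whole table. At an unadjusted p under 0.05 by limma there were 5 of 25 ABC genes and 2889 of all 12452 tested genes. The sizes shrank to 0.15 for ABCE1 (adjusted p = 0.141), 0.19 for ABCC2 (0.125), -0.08 for ABCF1 (0.282), -0.09 for ABCF3 (0.277) and -0.15 for ABCB8 (0.197). ABCC2 kept the greatest part of its difference. The trend with base composition runs between the groups themselves, so it and an effect of the mimic cannot be told apart here. Leaving out 1 library took the Huh7 count to between 0 and 4. It was 0 without mimic library 1, 2 or 3 or control library 2. It was 1 without control library 1 (ABCE1) and 4 without control library 3 (all but ABCF1). Calls fell over all tested genes too, from 2642 of 12508 with every library kept. They numbered 0, 4 and 0 without mimic library 1, 2 or 3, and 924, 1 and 1661 without control library 1, 2 or 3.

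**Figure D4:**
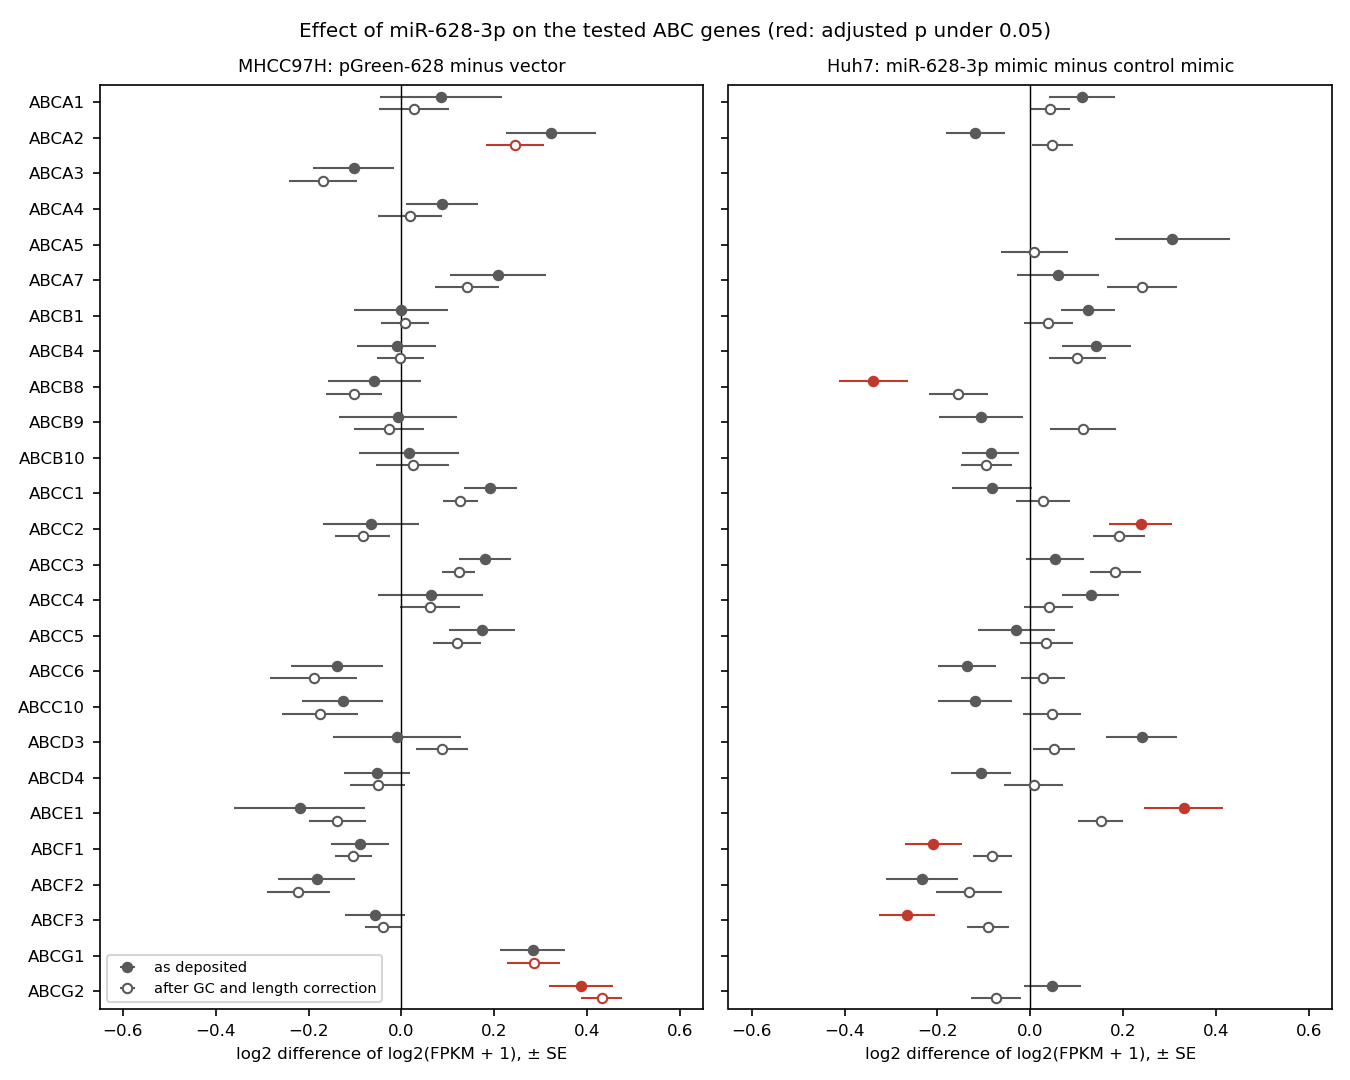
Log2 difference (horizontal axis) ± SE for 25 of the 27 tested ABC genes in MHCC97H on the left and 23 of the 25 in Huh7 on the right, with filled points for the deposited values and open points after GC and length correction. Red marks an adjusted p under 0.05: ABCG2 is red on both settings in MHCC97H, where ABCG1 and ABCA2 join it after correction, and the 5 red genes in Huh7 turn grey.

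The difference of the effect between the lines, MHCC97H minus Huh7, was tested as an interaction over all 12 libraries. It was called for 3 of 28 tested ABC genes, where 12.9% of all 13171 tested genes were called. One of the 3, ABCG1, had 0 reads in all 6 Huh7 libraries, so no effect there could be compared. Its value of 0.28 is the MHCC97H effect alone and was past the threshold in 4 of 20 alternatives. After GC and length correction it was 0.15 (adjusted p = 0.225). That correction also moves the Huh7 values of a gene without reads there, while the MHCC97H fit alone kept 0.28 after it. ABCG2 responded more in MHCC97H by 0.34 (SE 0.082, adjusted p = 0.0239), and the difference was 0.50 after correction (adjusted p = 0.000412). For ABCA2 the difference was 0.44 (SE 0.12, adjusted p = 0.0316), with a positive value in MHCC97H and a negative one in Huh7. After correction it was 0.22 (adjusted p = 0.0649), and both lines had positive values, 0.24 in MHCC97H and 0.05 in Huh7. After correction the 3 calls were ABCG2, ABCE1 (-0.30, adjusted p = 0.0387) and ABCC2 (-0.28, adjusted p = 0.0476), and ABCE1 before correction stood at -0.55 (SE 0.18, adjusted p = 0.0634). Over all tested genes 2007 of 13125 were called after correction. On the deposited values without pGreen-628 library 3, the count was 9 of 28 ABC genes, and 4670 of all 13178 tested genes were called. Without pGreen-628 library 1, vector library 1 or 3, or Huh7 control library 1 or 3 the ABC count was 0. It was 1 without pGreen-628 library 2, Huh7 mimic library 1 or 2 or Huh7 control library 2. Calls over all tested genes fell in these fits too, from 1694 with every library kept. They numbered 637 to 1137 where the ABC count was 0, and 845 to 1099 where it was 1.

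Genes that work with ABC proteins were counted by lists chosen with earlier results of these data known. Among nuclear receptors and other factors that regulate transporter genes, none of 14 tested was called in MHCC97H, and in Huh7 1 rose and 5 fell of 13. The shares of all tested genes called were 5.37% in MHCC97H and 21.1% in Huh7, where 6.75% were higher and 14.4% lower. Among those that fell in Huh7 were SREBF2, ESRRA and RXRA, with log2 differences of -0.30, -0.29 and -0.32. Of liver SLC uptake and efflux carriers, 1 of 6 tested rose in MHCC97H, SLCO2B1 (0.55, SE 0.092, adjusted p = 0.0182), and none of 5 was called in Huh7. Of cholesterol efflux partners, APOE rose (0.42, adjusted p = 0.0334) and NPC1, which releases cholesterol from lysosomes, fell (-0.48, adjusted p = 0.00943) of 8 tested in MHCC97H. Of 12 tested in Huh7, STARD4, which carries sterols between membranes, rose (0.37), and APOA1 (-0.35), SCARB1 (-0.26), APOE (-0.25) and LPCAT3 (-0.19) fell.

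Of the 12 peroxisomal and cobalamin partners of ABCD proteins, ACSL1 fell in MHCC97H (-0.59, adjusted p = 0.00349), and in Huh7 ACAA1, PEX14 and PEX5 fell (-0.23, -0.31 and -0.29). Of 12 mitochondrial iron-sulfur and heme partners, none was called in MHCC97H and 4 fell in Huh7, GLRX5, SLC25A39, CPOX and SLC25A38 (-0.33, -0.27, -0.22 and -0.23). Of 9 ribosome recycling and quality control partners of ABCE1, none was called in MHCC97H, and in Huh7 EIF1 fell (-0.23) and NEMF rose (0.76). Of 8 translation partners of ABCF proteins, EIF2S2 fell in MHCC97H (-0.39, adjusted p = 0.0271) and none was called in Huh7. Among 5 tested partners of ABCC proteins, UGT1A1, which makes the bilirubin glucuronides that ABCC2 exports, rose in MHCC97H (1.07, SE 0.072, adjusted p = 0.000690), at 30.6 FPKM in pGreen-628 libraries and 14.1 FPKM in vector libraries. GSTP1 fell in Huh7 (-0.29). None of 5 canalicular and copper ATPases tested in MHCC97H or 3 in Huh7 was called, nor were TAP1 and TAP2. After GC and length correction no gene of these lists was called in Huh7, while in MHCC97H the correction added calls. Calls also rose over the whole table in MHCC97H, from 680 of 12670 tested genes to 1981 of 12630. In these lists the correction took in the nuclear receptors NR1H3, PPARA and RXRA, all 3 higher, and the ATPases ATP7A and ATP8B1, both higher. For cholesterol efflux partners it gave 5 calls, 3 higher and 2 lower, in place of 2, and for peroxisomal and cobalamin partners 4 in place of 1.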

How the data were processed

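Poly-A RNA libraries that kept the strand through dUTP were read from both ends, per the labels' protocols. The authors deposited FPKM for 60664 genes, and the submitters' processing notes name HISAT2, HISAT and HTSeq with GRCh38 and hg38, without versions. Every deposited FPKM value gave whole reads within 0.01. Genes whose FPKM averaged 1 or more over the compared libraries entered limma (version 3.58.1, R 4.3.3) as log2(FPKM + 1). The model held the group only, eBayes used its trend option, and p-values were adjusted by Benjamini-Hochberg over all of them. Each line had its own fit, the control libraries of both lines another, and the interaction used all 12. The fit was tested on simulated counts with planted fold changes. These had the same dispersion for all genes, no trend with GC content and no outlying library. The simulation therefore does not cover the GC trend in Huh7 or the spread of the pGreen-628 libraries. GC content, 3′ UTRs and exon overlaps came from GENCODE 29, where all 45 ABC genes matched by identifier. Gene bounds equalled those of the deposited table for 11 of the 45. These features can therefore differ from the annotation that was counted. The correction for GC content and length fitted natural splines with 5 degrees of freedom per library. Tables and figures used Python 3.11.15, numpy 2.4.6, pandas 2.3.3 and matplotlib 3.10.9.

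The members, the gene lists and the rule for named genes were chosen with earlier results of these data known. Genes were named with each library's value where called in a miR-628-3p comparison or the interaction, among the 5 highest in the controls of a line, or among the 5 largest called line differences in each direction. Alternatives changed the pseudocount to 0.1, the filter, the scaling, the trend, the model (voom on the recovered reads), the block on replicate number and the joint fit, corrected for GC content and length, and left out each library in turn. Some genes of the table, 2 of them ABC genes, are counted but not reported here by name.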

Additional observations from a re-analysis of the deposited data

Results flagged for a closer look

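The interaction term of limma, on the log2 scale, passed for 3 ABC genes. The effect of miR-628-3p was higher in MHCC97H than in Huh7 by 0.44 for ABCA2 and 0.34 for ABCG2. The value for ABCG1, 0.28, holds the MHCC97H effect alone and compares no effects, since the gene had 0 reads in all 6 Huh7 libraries. It passed in 4 of 20 alternatives, ABCA2 in 10. The alternatives gave adjusted p from 0.0138 to 0.0840 for ABCA2, 0.000412 to 0.0670 for ABCG2 and 0.0300 to 0.696 for ABCG1. Line and delivery cannot be told apart.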

How the results depend on the processing

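The count of ABC genes called between the lines, 24 as reported, was 23 to 30 over the alternatives, with 23 to 25 when a library was left out. ABCF3 was called in 6 of those 15 alternatives, and the log2 differences ran from 3.24 to 9.98 for ABCG1, 1.86 to 6.66 for ABCA3 and 0.48 to 1.61 for ABCA7. The count in MHCC97H, 1 as reported, was 0 with no filter on level, 3 after GC and length correction, 4 in the joint fit of all 12 libraries, and 0 to 2 with a library left out. Over all tested genes in MHCC97H, 1981 of 12630 were called after that correction and 1672 of 12670 in the joint fit. With no filter 326 were called, and 142 to 1604 with a library left out, against 680 as reported. The count in Huh7, 5 as reported, was 0 with no filter, 0 after GC and length correction and 2 without the mean-variance trend. It was 2 in the joint fit, 1 with the replicate block, and 0 to 4 with a library left out. Over all tested genes in Huh7 2642 were called as reported. In the same order the settings called 7, 1, 1694, 866 and 1187 of all tested genes, and 0 to 1661 with a library left out. The count for the difference between lines, 3 as reported, was 1 with no filter, 1 with the replicate block, and 0 to 9 with a library left out. The 9 came without pGreen-628 library 3, where 4670 of all 13178 tested genes were called. Without any other single library 637 to 1268 were called, against 1694 as reported. With no filter 967 were called, and 1106 with the replicate block. With no filter, adjustment ran over 29072 genes in MHCC97H and 29305 in Huh7; the other causes were not tested. Signs turned for 5 uncalled values. With a library left out, ABCB8 in MHCC97H ran from -0.119 to 0.0186 and ABCC2 in MHCC97H from -0.180 to 0.0344. After GC and length correction ABCA2 and ABCG2 in Huh7 came to 0.0473 and -0.0735, and ABCF1 for the difference between lines to -0.0122. The labels do not say whether replicate numbers pair the libraries. Correlations of deviations from the group means were -0.088, 0.305 and 0.135 for same-numbered libraries in MHCC97H and -0.015, -0.075 and 0.037 in Huh7. For libraries with different numbers they ran from -0.343 to 0.25 in MHCC97H and from -0.145 to 0.171 in Huh7. With 3 libraries per group these values cannot decide whether the numbers pair. Depth limits the genes with few reads.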
